A study of Rattus norvegicus with 6 samples.

Results

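The insulin-like growth factor (IGF) family was read from RNA sequencing of ventral hippocampus. The rats were males of the outbred Sprague Dawley strain. The 10 members of the family described here were chosen by gene symbol: the ligands Igf1 and Igf2, the receptors Igf1r and Igf2r, and the binding proteins Igfbp2 to Igfbp7. All 10 were among the 22601 genes of the deposited count table and among the 14588 genes that passed the filter on low counts. One group held 3 aged rats (22 months) and the other 3 adult rats (4 months), and the labels name no treatment. Each library came from a separate animal, drawn at random from 10 rats of its age that had been tested in the Morris water maze, a swimming task for spatial memory. Library totals lay between 12476758 and 15689921 counts, and the members held between 112 and 2558 counts in any library.

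IGF1 and IGF2 are small secreted hormones related to insulin. Both signal through the tyrosine kinase receptor encoded by Igf1r, whereas the product of Igf2r, the cation-independent mannose 6-phosphate receptor, takes up IGF2 for lysosomal breakdown and sorts lysosomal enzymes. In the adult brain IGF1 acts on neuronal survival, synapses and myelin, and IGF2 is made chiefly by the meninges and the choroid plexus, the epithelium that secretes cerebrospinal fluid, and has been linked to hippocampal memory in rats. Binding proteins IGFBP2 to IGFBP6 hold the ligands with high affinity and set how much of them is free, while IGFBP7 binds them weakly and is a product of blood vessels.

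The stretches of 250 bases before the annotated gene start are shown for both ligands, the members whose values did not overlap between the ages. They are also shown for Igfbp2 and Igfbp3, the pair of members with the highest Pearson's r across all 6 libraries. They are from RefSeq on build GRCr8, 5′ to 3′ on the strand of the gene; all 10 members had an entry, and a gene such as Igf2 can have other starts that are not shown. The windows are chr7:24172282-24172531 on the plus strand for Igf1, chr1:207253981-207254230 on the minus strand for Igf2, chr9:81864561-81864810 on the plus strand for Igfbp2 and chr14:86277945-86278194 on the minus strand for Igfbp3. Capitals mark the GC box GGGCGG, a binding sequence of Sp1, or its complement CCGCCC.
Igf1: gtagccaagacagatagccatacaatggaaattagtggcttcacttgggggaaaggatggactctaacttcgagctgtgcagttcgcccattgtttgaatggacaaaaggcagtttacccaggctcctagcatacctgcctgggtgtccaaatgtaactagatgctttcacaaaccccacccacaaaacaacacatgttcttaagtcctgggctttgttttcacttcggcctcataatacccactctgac
Igf2: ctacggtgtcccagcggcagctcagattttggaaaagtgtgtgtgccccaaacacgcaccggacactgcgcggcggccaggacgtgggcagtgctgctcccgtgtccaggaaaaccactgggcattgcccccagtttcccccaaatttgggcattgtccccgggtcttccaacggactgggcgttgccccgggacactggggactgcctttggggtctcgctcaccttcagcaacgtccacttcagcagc
Igfbp2: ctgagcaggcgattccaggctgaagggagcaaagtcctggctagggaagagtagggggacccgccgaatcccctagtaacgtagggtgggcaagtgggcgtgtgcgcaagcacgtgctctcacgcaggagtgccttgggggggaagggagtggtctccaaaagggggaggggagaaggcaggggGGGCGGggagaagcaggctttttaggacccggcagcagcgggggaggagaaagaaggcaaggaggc
Igfbp3: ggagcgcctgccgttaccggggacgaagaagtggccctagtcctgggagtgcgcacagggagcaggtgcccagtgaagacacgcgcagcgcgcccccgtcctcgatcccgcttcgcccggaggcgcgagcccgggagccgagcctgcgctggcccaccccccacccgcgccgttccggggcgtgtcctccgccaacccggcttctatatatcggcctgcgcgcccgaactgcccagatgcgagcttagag
A GC box was found on either strand in 4 of the 10 members' windows (Igf1r, Igf2r, Igfbp2 and Igfbp7), and in 30.5% of 33469 windows of the same length over all genes. The letters TATAAA, the core of the TATA box, or their complement TTTATA were found in 1 member, Igfbp4, and in 12.9% of all windows; the 2 motifs did not overlap. The Igf1 window held 3 CG pairs, the Igf2 window 15, the Igfbp2 window 11 and the Igfbp3 window 31, against a median of 5 over all windows.

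The levels of the members were compared per length, in the FPKM that the authors deposited, over the 6 libraries. Igfbp7 stood far above the rest, at 94.0 to 158 FPKM, and was the highest member in every library. Igfbp2, Igfbp4 and Igfbp6 followed with means of 24.2, 21.7 and 16.5 FPKM. Their ranges overlapped, and Igfbp2 was above Igfbp4 in only 2 of 6 libraries, so this order was not separated by the spread between animals. Next, with the ages pooled, came Igf2 at a mean of 9.45 FPKM, Igfbp5 at 6.81, Igf2r at 6.74 and Igfbp3 at 5.79, again with overlapping ranges. The place of Igf2 depended on age and on 1 library: it averaged 4.03 FPKM in aged and 14.9 FPKM in adult rats, was below Igfbp3 in every aged rat, and averaged 6.11 FPKM over the 5 libraries other than adult replicate 1. Igf1r (mean 3.18 FPKM) lay below Igfbp3 and above Igf1 (mean 1.53 FPKM) in every library, with ranges that did not overlap. Among the ligand transcripts, Igf2 was therefore the more abundant one in all 6 libraries, by 1.77-fold in aged replicate 1 and 14.3-fold in adult replicate 1 at the extremes.

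**Figure D1:**
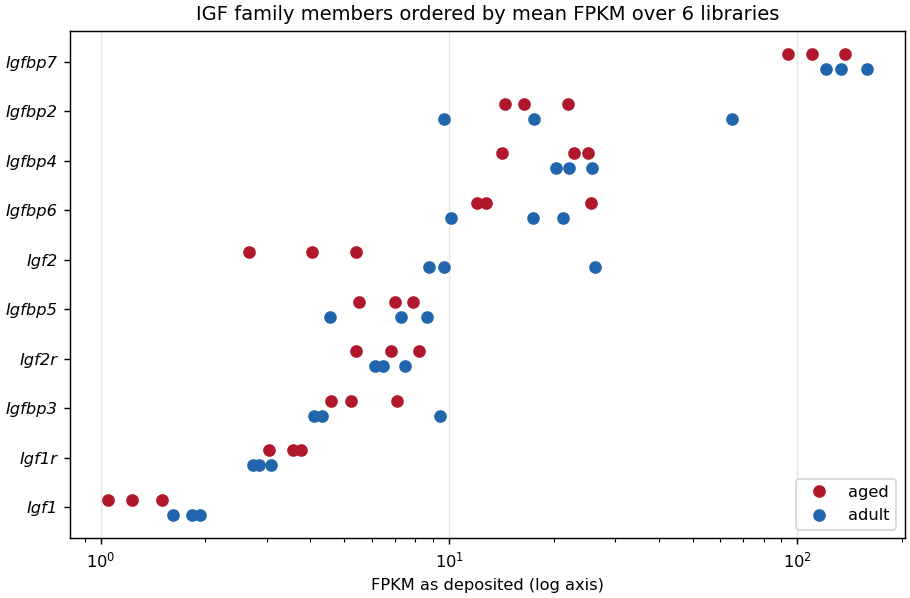
FPKM of each IGF family member on a log axis, one point per library, aged rats in red above adult rats in blue, with genes ordered by their mean over 6 libraries. Igfbp7 lies apart at 94.0 to 158 FPKM and Igf1 is lowest at 1.05 to 1.93 FPKM, while most neighbouring members between them overlap; Igf1r lies apart from both Igfbp3 and Igf1.

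The libraries were checked for RNA of neighbouring tissues and of liver, since several members are abundant there. Values below are CPM, each library's counts scaled to a common total by TMM, edgeR's correction for composition. Ttr, the transthyretin of the choroid plexus, stood at 4.39, 67.9 and 41.6 CPM in aged replicates 1 to 3, against 2074, 43.2 and 17.8 CPM in adult replicates 1 to 3. Adult replicate 1 thus carried far more choroid plexus RNA than any other library, and values are given below with and without it. Alb, the albumin made by liver, was low in replicate 1 of both ages (16.0 CPM aged, 16.9 CPM adult) and higher in the other libraries (205 and 162 CPM aged, 429.6 and 396 CPM adult). RNA of excitatory neurons was present throughout. The 10 markers listed for those of the hippocampus summed to 1486 to 2406 CPM in aged and 1243 to 2152 CPM in adult rats, with none at 0. The lowest sum, 1243 CPM, was that of adult replicate 1. Slc17a7 held the largest part in every library, 680.1 to 1337 CPM. These sums do not show which brain region the neurons came from.

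In the comparison of aged with adult rats, both ligands were lower in every aged rat than in any adult rat, the receptors and binding proteins overlapped between the ages, and no member passed the test over all genes. With edgeR's quasi-likelihood test, 0 of 10 members reached an adjusted p below 0.05 (Benjamini-Hochberg over 14588 genes), the threshold for a call, and 0.0% of all genes did. At an unadjusted p under 0.05 there were 2 members, Igf1 and Igf2, with 3.45% of all genes at that level; both members were lower in aged rats, as were 2.27% of all genes. DESeq2 called 1 member, Igf2, where it called 0.167% of the 18526 genes to which it gave an adjusted p. Both limma-voom and limma on log2(FPKM + 1) called 0 members. Values of the aged and adult rats did not overlap in 2 of 10 members, with 7.56% of all genes not overlapping and 4.43% having every aged rat below every adult rat, as these members had. Of the 10 members 7 had a log2 fold change below 0, as had 50.5% of all genes, and the median was -0.12 for the members and 0.0 for all genes.

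**Figure D2:**
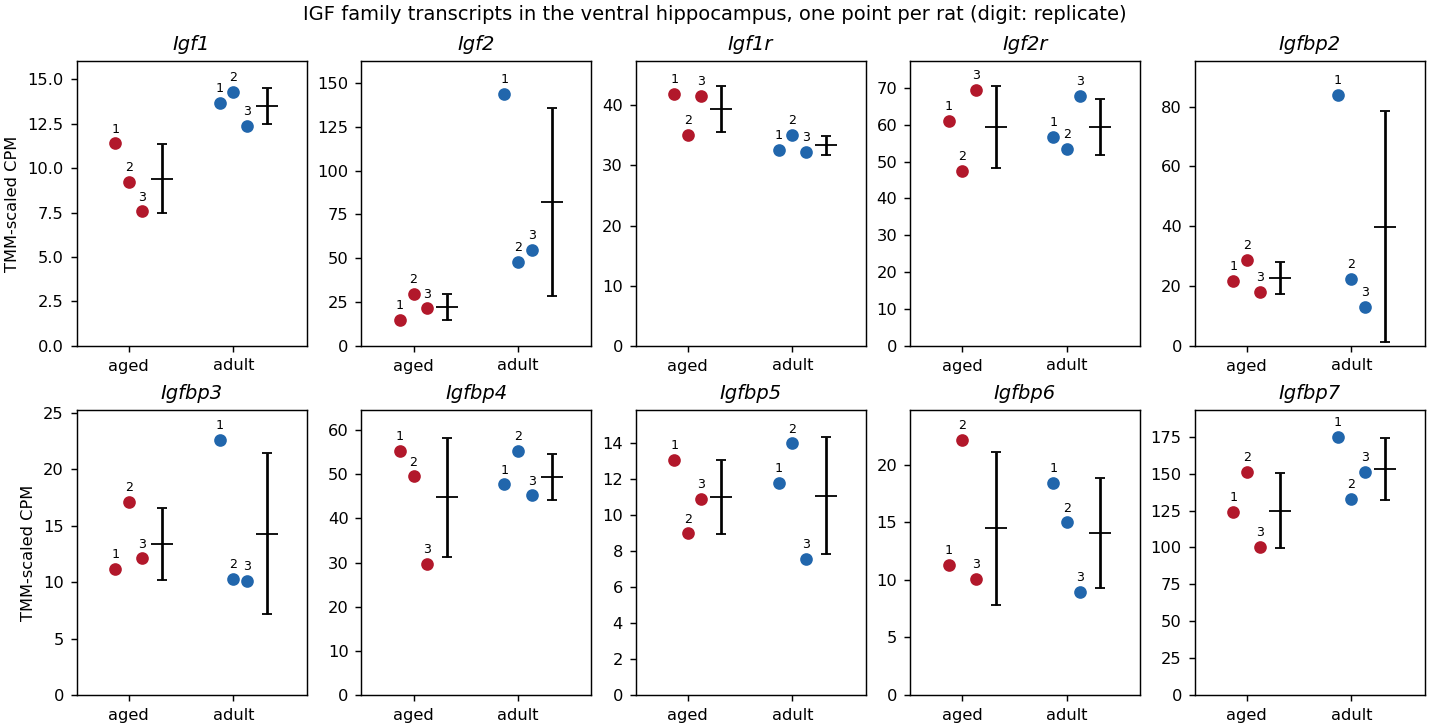
TMM-scaled CPM of the 10 members, one point per rat with its replicate number, aged left and adult right in each panel; black bars give the mean and SD of 3 rats. Igf1 and Igf2 are the panels without overlap, and adult replicate 1 is the highest point for Igf2, Igfbp2, Igfbp3 and Igfbp7.

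Igf2, the ligand with the wider difference, stood at 14.9, 29.8 and 21.4 CPM in aged replicates 1 to 3, against 144, 47.8 and 54.9 CPM in adult replicates 1 to 3. Every aged rat lay below every adult rat, with adult replicate 1 far above the other adults. Igf2 averaged 22.0 ± 7.46 CPM in aged and 82.2 ± 53.5 CPM in adult rats (SD, n = 3 each), a ratio of means of 0.268. The log2 fold change was -1.90 ± 0.44 (SE, 95% interval -2.92 to -0.88), with an adjusted p of 1.0 by edgeR and 0.00273 by DESeq2. Without adult replicate 1 the log2 fold change was -1.21 (95% interval -1.84 to -0.58, edgeR adjusted p = 0.979), and DESeq2 gave -1.22 with an adjusted p of 0.0262. In tissue RNA, fewer cells of a type and less RNA per cell cannot be told apart. On GRCr8 Igf2 overlaps Mir483 and LOC102548568, and the use of strand in counting is not stated, so reads of these genes may be mixed.

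Choroid plexus and meningeal markers were counted beside Igf2. Of 14 choroid plexus genes 8 were tested and all 8 were lower in aged rats (0 called by edgeR, DESeq2, limma-voom or limma on FPKM; 4 at an unadjusted p under 0.05). Their sum was 103 to 144 CPM in aged and 132 to 2604 CPM in adult rats, with Sostdc1, Otx2, Tmem72 and Prlr at 0 in at least 1 library. Without adult replicate 1, 4 of the 8 were higher and 4 lower, with a median log2 fold change of -0.02 against -1.99 over all libraries, and the sums of the remaining adults were 189.9 and 132 CPM. Ttr was then at a mean of 38.0 CPM in aged and 30.5 CPM in the 2 remaining adult rats (log2 fold change 0.33). Enpp2, also on the choroid plexus list, went the other way, at 77.6 CPM aged and 117 CPM adult (-0.59). Of the choroid plexus sums Enpp2 held 89.4, 52.8 and 90.6 CPM in aged replicates 1 to 3. In adult replicates 1 to 3 it held 410.4, 133 and 102 CPM. Enpp2 was thus the larger part of the sum in every library except aged replicate 2 and adult replicate 1. Of 18 meningeal fibroblast genes (Igf2 not among them) 15 were tested, 11 lower and 4 higher (0 called by edgeR, limma-voom or limma on FPKM, 2 by DESeq2; 5 at an unadjusted p under 0.05), with no marker at 0. That list summed to 422 to 489 CPM in aged and 476 to 716 CPM in adult rats. Of these sums Ptgds held 219, 244 and 381 CPM in aged replicates 1 to 3. In adult replicates 1 to 3 it held 389.5, 269.6 and 247 CPM. Col1a1, on the same list, held 64.4, 38.9 and 15.8 CPM aged and 91.5, 129 and 86.6 CPM adult. Ptgds thus overlapped between the ages (log2 fold change -0.1) and Col1a1 did not (-1.37, and -1.44 without adult replicate 1). Without adult replicate 1, 10 of the 16 then tested were lower and 6 higher. The part of these tissues in the Igf2 difference was not tested. Within the adults, adult replicate 1 exceeded the mean of the other adults 68.0-fold for Ttr and 2.80-fold for Igf2. Between single libraries the order of Ttr and Igf2 could also differ: aged replicate 2 had 67.9 CPM of Ttr with 29.8 CPM of Igf2, and adult replicate 3 had 17.8 CPM of Ttr with 54.9 CPM of Igf2.

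Markers of other cells and tissues were also lower in aged rats. All 10 oligodendrocyte and myelin genes were lower (0 called by edgeR, limma-voom or limma on FPKM, 4 by DESeq2; 8 at an unadjusted p under 0.05), summing to 6890.3 to 9126 CPM in aged and 11553 to 17360.0 CPM in adult rats, with no marker at 0. Without adult replicate 1 all 10 were still lower, 4 of them at an unadjusted p under 0.05. All 12 skeletal muscle genes were lower (0 called by any of these tools, and 4 at an unadjusted p under 0.05), with no marker at 0. With adult replicate 1 left out all 12 were still lower, 8 of them at an unadjusted p under 0.05. Their sums were 279.6, 161 and 175 CPM in aged replicates 1 to 3. In adult replicates 1 to 3 they were 298, 279.8 and 705 CPM. Pvalb, which is also on the interneuron list, held 98.7, 106 and 70.5 CPM of the aged sums. Of the adult sums it held 117, 107 and 129 CPM. The part of these cells and tissues in the Igf2 and Igf1 differences was not tested.

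Igf1, the ligand that growth hormone induces in liver and that brain cells also make, stood at 11.4, 9.23 and 7.57 CPM in aged replicates 1 to 3, against 13.7, 14.3 and 12.4 CPM in adult replicates 1 to 3. The highest aged rat lay just below the lowest adult rat, and the adult rats were close together. Igf1 averaged 9.41 ± 1.94 CPM in aged and 13.5 ± 0.996 CPM in adult rats (SD, n = 3 each), a ratio of means of 0.698. The log2 fold change was -0.52 ± 0.21 (SE, 95% interval -0.99 to -0.05), with an adjusted p of 1.0 by edgeR. It was -0.50 without adult replicate 1, where the 95% interval ran from -1.06 to 0.07, and -0.38 without aged replicate 3 (95% interval -0.87 to 0.10); the interval also crossed 0 without adult replicate 2 or aged replicate 2. Adult replicate 1, the library with the most Ttr, had 1.03 times the mean Igf1 level of the other adults. The part of choroid plexus RNA in the Igf1 difference was not tested.

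Liver carriers of IGF1 were near the floor. Igfbp1, a binding protein of liver, had 4, 0 and 8 counts in aged replicates 1 to 3, against 1, 3 and 6 counts in adult replicates 1 to 3. Igfals, the acid-labile subunit that holds IGF1 in plasma complexes, had 1, 2 and 7 counts in aged replicates 1 to 3, against 1, 7 and 1 counts in adult replicates 1 to 3. Neither passed the filter on low counts, and the 0 of aged replicate 2 allows up to 0.241 CPM of Igfbp1 (3 counts, counting error only). Between the libraries low in Alb, Igf1 was 11.4 CPM in the aged and 13.7 CPM in the adult rat. Between the libraries higher in Alb it was 9.23 and 7.57 CPM in aged and 14.3 and 12.4 CPM in adult rats. The low set is 1 library per age and has no replicate. Of 15 liver genes 14 were tested and all 14 were lower in aged rats (0 called by edgeR, DESeq2, limma-voom or limma on FPKM; 1 at an unadjusted p under 0.05), summing to 726 to 960.5 CPM in aged and 944 to 1463 CPM in adult rats, with Apoa2 and Ahsg at 0 in at least 1 library. With adult replicate 1 left out all 14 were still lower, 7 of them at an unadjusted p under 0.05. The remaining adults summed to 1275 to 1463 CPM. Of these sums Tf held 684, 543 and 716 CPM in aged replicates 1 to 3. In adult replicates 1 to 3 it held 898, 847 and 636 CPM. In replicate 1, where Alb was low, the sum was 726 CPM aged and 944 CPM adult, nearly all of it Tf. These sums therefore do not show how much liver RNA a library held. The part of the liver genes in the Igf1 difference was not tested.

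Marker lists of brain cells that can make IGF1 differed in direction. Of 10 microglial genes, all tested, 9 were higher in aged rats, with sums of 401 to 581 CPM in aged and 358 to 452 CPM in adult rats. Of 10 interneuron genes 9 were tested and 8 were higher, with sums of 992 to 1499 CPM in aged and 944 to 1306 CPM in adult rats, and Npy was at 0 in at least 1 library. In each of these lists 0 genes were called by edgeR, DESeq2, limma-voom or limma on FPKM, and 1 had an unadjusted p under 0.05. When adult replicate 1 was left out, 9 microglial and 8 interneuron genes were higher. Then 0 microglial and 3 interneuron genes had an unadjusted p under 0.05. Of 10 astrocyte genes, all tested, 8 were lower (0 called by these tools; 1 at an unadjusted p under 0.05), summing to 2498 to 2930.3 CPM in aged and 2509 to 3172 CPM in adult rats, with no marker at 0. Pericyte and smooth muscle genes were lower in 11 of 12 tested (0 called by any of these tools; 6 at an unadjusted p under 0.05), summing to 152 to 208 CPM in aged and 235 to 312 CPM in adult rats, with no marker at 0. Again without adult replicate 1, 7 astrocyte genes were lower and 3 higher, 0 of them at an unadjusted p under 0.05. Of the pericyte and smooth muscle genes 11 were then lower and 1 higher, 6 of them at that level. The part of these cells in the Igf1 difference was not tested.

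The genes most like each ligand were picked by Pearson's r of log2 CPM over the 6 libraries among 13116 candidate genes, as a description of these libraries, which the genes share along with their depth. Igf1 was most like the fibrillar collagen genes Col3a1 (r = 0.994) and Col1a1 (r = 0.985), followed by Kif20a, Tmem51 and Rassf9 (r = 0.978 to 0.982). Both collagen genes are on the meningeal fibroblast list above, whose part in the Igf1 difference was not tested. Col3a1, a collagen of fibroblasts and vessel walls, stood at 50.8, 30.6 and 13.8 CPM in aged replicates 1 to 3, against 84.4, 100.2 and 72.2 CPM in adult replicates 1 to 3. The aged rats thus had the same order for Col3a1 as for Igf1, and so had the adult rats. Igf2 was most like Tfeb, a regulator of lysosomal genes (r = 0.992), Cmtm5 (0.984) and Slc35b2 (0.982). The coagulation factor gene F5 (0.981) and the myelin gene Pllp (0.981) followed. F5 is also on the choroid plexus list. It stood at 0.0665, 0.803 and 0.438 CPM in aged replicates 1 to 3, and at 9.69, 0.947 and 1.80 CPM in adult replicates 1 to 3.

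**Figure D3:**
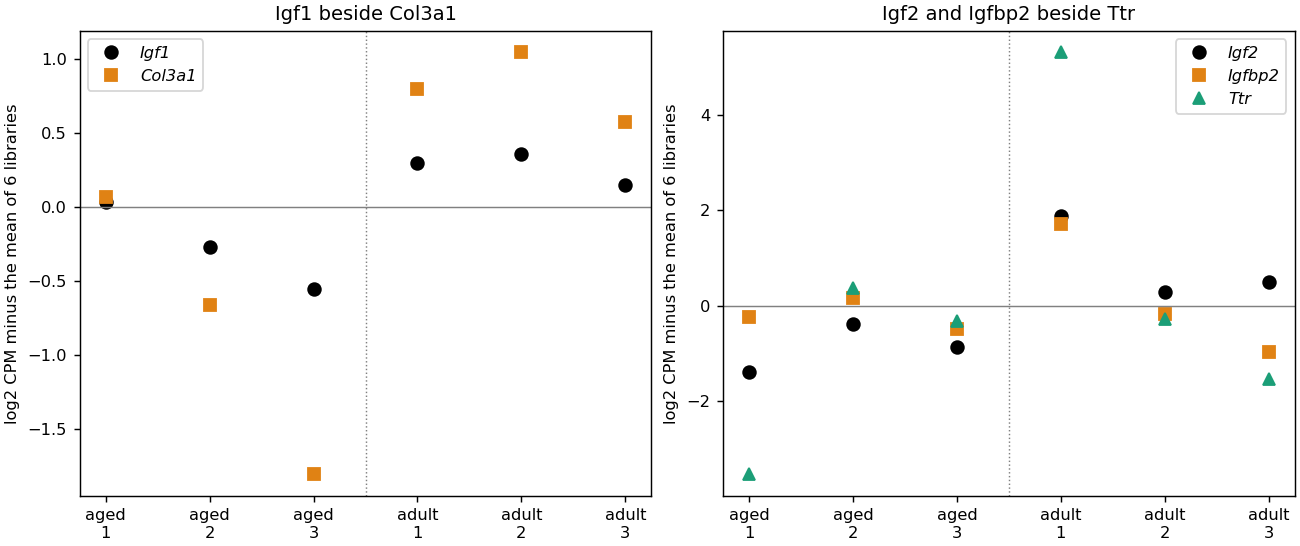
Log2 CPM of each gene minus its mean over 6 libraries, one point per library, aged left of the dotted line and adult right; Igf1 is shown beside Col3a1, and Igf2 and Igfbp2 beside Ttr. Igf1 and Col3a1 share their order of libraries (r = 0.994), and Ttr, Igf2 and Igfbp2 are all highest in adult replicate 1.

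Neither receptor passed the test. Igf1r, which transmits the signal of both ligands, stood at 41.8, 35.0 and 41.5 CPM in aged replicates 1 to 3, against 32.5, 35.1 and 32.2 CPM in adult replicates 1 to 3. Aged replicates 1 and 3 were above every adult rat and aged replicate 2 was within the adult range. It averaged 39.4 ± 3.84 CPM in aged and 33.3 ± 1.60 CPM in adult rats (SD, n = 3 each), with a log2 fold change of 0.25 ± 0.13 (SE, 95% interval -0.04 to 0.53) and an edgeR adjusted p of 1.0. Igf1r overlaps Pgpep1l and LOC134483685 in GRCr8.

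Igf2r, the clearance receptor of IGF2, stood at 61.1, 47.5 and 69.4 CPM in aged replicates 1 to 3, against 56.7, 53.5 and 67.9 CPM in adult replicates 1 to 3. The aged values spanned the adult ones, and the means of 59.3 ± 11.1 CPM in aged and 59.4 ± 7.54 CPM in adult rats were nearly equal (SD, n = 3 each). Its 95% interval of -0.38 to 0.38 on the log2 scale bounds the difference either way.

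Across the 45 pairs of members, Pearson's r of log2 CPM over the 6 libraries ran from -0.93 to 0.91 with a median of 0.16, given as a description of libraries that share their depth and tissue makeup. The receptors ran opposite to some secreted members: r was -0.86 between Igf1r and Igf2, -0.87 between Igf1r and Igfbp7, and -0.93 between Igf2r and Igfbp6. Without adult replicate 1 these values were -0.92, -0.84 and -0.97. The only pair above 0.80 was Igfbp2 with Igfbp3 (0.91, and 0.70 without adult replicate 1). Igfbp2 with Igfbp6 had 0.72, and 0.89 without adult replicate 1. Igf2 and Igfbp2 had r = 0.63 over 6 libraries and -0.37 without adult replicate 1.

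Among the binding proteins, the largest fold change belonged to the member that varied most between the adult rats. Igfbp2, made by choroid plexus and astrocytes, stood at 21.7, 28.6 and 18.1 CPM in aged replicates 1 to 3, against 84.0, 22.5 and 12.9 CPM in adult replicates 1 to 3. Adult replicate 1 was far above all other libraries, and the remaining adults were both below the highest aged rat. Igfbp2 averaged 22.8 ± 5.31 CPM in aged and 39.8 ± 38.6 CPM in adult rats (SD, n = 3 each), with a log2 fold change of -0.80 ± 0.60 (SE, 95% interval -2.19 to 0.58) and an edgeR adjusted p of 1.0. Without adult replicate 1 the direction turned, to 0.38 (95% interval -0.31 to 1.06). Its biological coefficient of variation in edgeR, the spread between animals beyond counting error, was 50.2%, above that of 95.8% of all genes tested. That value includes adult replicate 1. Between the aged rats the highest Igfbp2 value was 1.58 times the lowest, against 2.2 times for Igfbp6.

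Igfbp3, the main carrier of IGFs in blood and a product of vessel cells, behaved alike on a smaller scale. It stood at 11.2, 17.1 and 12.1 CPM in aged replicates 1 to 3, against 22.6, 10.3 and 10.1 CPM in adult replicates 1 to 3. Apart from adult replicate 1, every adult rat lay below every aged rat. The log2 fold change was -0.09 ± 0.34 (SE, 95% interval -0.88 to 0.69, edgeR adjusted p = 1.0), and 0.41 without adult replicate 1 (95% interval -0.18 to 1.00). The choroid plexus sums given above are highest in the same library; their part in the Igfbp2 and Igfbp3 values was not tested. In GRCr8 Igfbp3 lies next to Igfbp1, which was near the floor, and Igfbp2 lies next to Igfbp5, which did not follow it.

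Igfbp5, an IGF-binding protein of the extracellular matrix, stood at 13.1, 8.99 and 10.9 CPM in aged replicates 1 to 3, against 11.8, 14.0 and 7.59 CPM in adult replicates 1 to 3. The aged rats lay wholly within the adult range, and the log2 fold change was -0.01 ± 0.27 (SE, 95% interval -0.62 to 0.60). Adult replicate 1, which held the most Igfbp2, was the middle adult for Igfbp5.

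Igfbp4, which inhibits IGF action until the protease PAPP-A cleaves it, stood at 55.3, 49.5 and 29.6 CPM in aged replicates 1 to 3, against 47.7, 55.2 and 45.2 CPM in adult replicates 1 to 3. Aged replicate 3 was the low one, aged replicate 1 was just above the highest adult rat, and aged replicate 2 was within the adult range. The log2 fold change was -0.14 ± 0.22 (SE, 95% interval -0.65 to 0.37), and it was 0.09 without aged replicate 3.

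Igfbp6, which prefers IGF2 over IGF1, stood at 11.3, 22.2 and 10.1 CPM in aged replicates 1 to 3, against 18.4, 15.0 and 8.99 CPM in adult replicates 1 to 3. The groups overlapped throughout, with aged replicate 2 highest of all, and the log2 fold change was 0.03 ± 0.36 (SE, 95% interval -0.80 to 0.87). Without aged replicate 2 it was -0.40.

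Igfbp7, the weak IGF binder of vessels and the most abundant member, stood at 124, 151 and 100.1 CPM in aged replicates 1 to 3, against 175, 133 and 151 CPM in adult replicates 1 to 3. Adult replicate 1 was highest, aged replicate 3 lowest, and the groups overlapped. It averaged 125 ± 25.6 CPM in aged and 153 ± 20.9 CPM in adult rats (SD, n = 3 each), with a log2 fold change of -0.29 ± 0.18 (SE, 95% interval -0.69 to 0.11). Leaving out adult replicate 1 gave -0.17, leaving out aged replicate 3 gave -0.15, and leaving out aged replicate 2 gave -0.44, where the 95% interval ran from -0.83 to -0.05. Endothelial genes were lower in all 11 tested of the 12 listed (0 called by edgeR, DESeq2, limma-voom or limma on FPKM; 2 at an unadjusted p under 0.05), summing to 412 to 549 CPM in aged and 527 to 701 CPM in adult rats with no marker at 0. All 11 were also lower without adult replicate 1, 3 of them at an unadjusted p under 0.05. The part of these genes in the Igfbp7 values was not tested. Igfbp7 overlaps Polr2b in GRCr8.

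**Figure D4:**
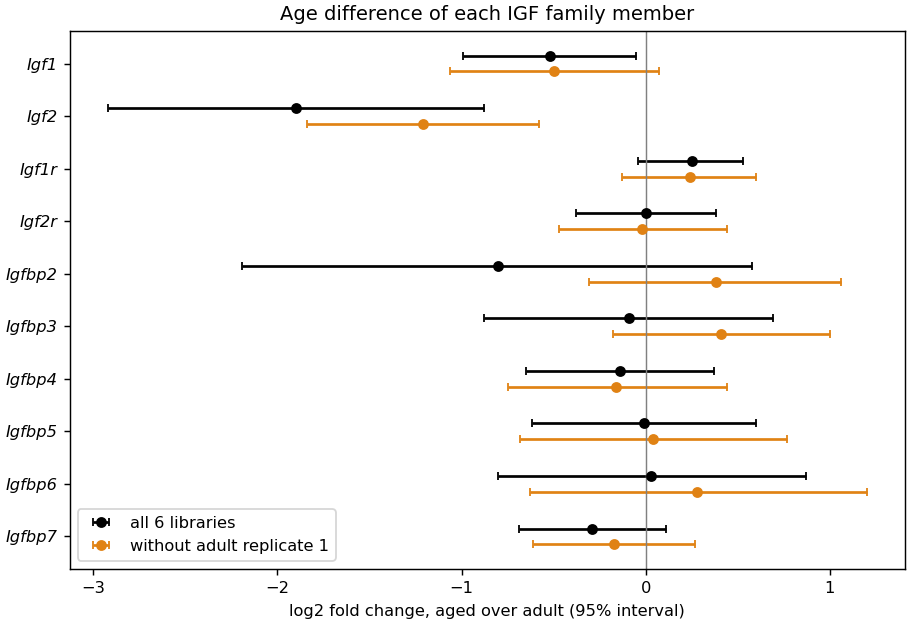
Log2 fold change of each member, aged over adult, with its 95% interval from edgeR, for all 6 libraries (black) and without adult replicate 1 (orange). Igf2 stays below 0 in both (-1.90 and -1.21), while Igfbp2 lies at -0.80 and 0.38.

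The binding proteins were also summed per library in FPKM, to show what the pool of their transcripts was made of. The sum was 177, 219.7 and 147 FPKM in aged replicates 1 to 3, against 283, 195 and 182 FPKM in adult replicates 1 to 3. Igfbp7 made up 62.2%, 62.2% and 64.0% of it in aged replicates 1 to 3, against 55.9%, 62.2% and 73.2% in adult replicates 1 to 3. Igfbp7 was thus more than the other binding proteins together in every library. The share of Igfbp2 was 9.30%, 10.0% and 9.89% in aged replicates 1 to 3, against 22.9%, 8.99% and 5.31% in adult replicates 1 to 3. The aged rats were close together and the adults lay on both sides of them. Set against the summed FPKM of Igf1 and Igf2, the binding protein sum was 42.5, 33.1 and 28.9 times as high in aged replicates 1 to 3, against 10.1, 18.2 and 16.1 times in adult replicates 1 to 3. This ratio, a descriptive quantity with no test, did not overlap between the ages, as its denominator holds the ligands that did not.

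**Figure D5:**
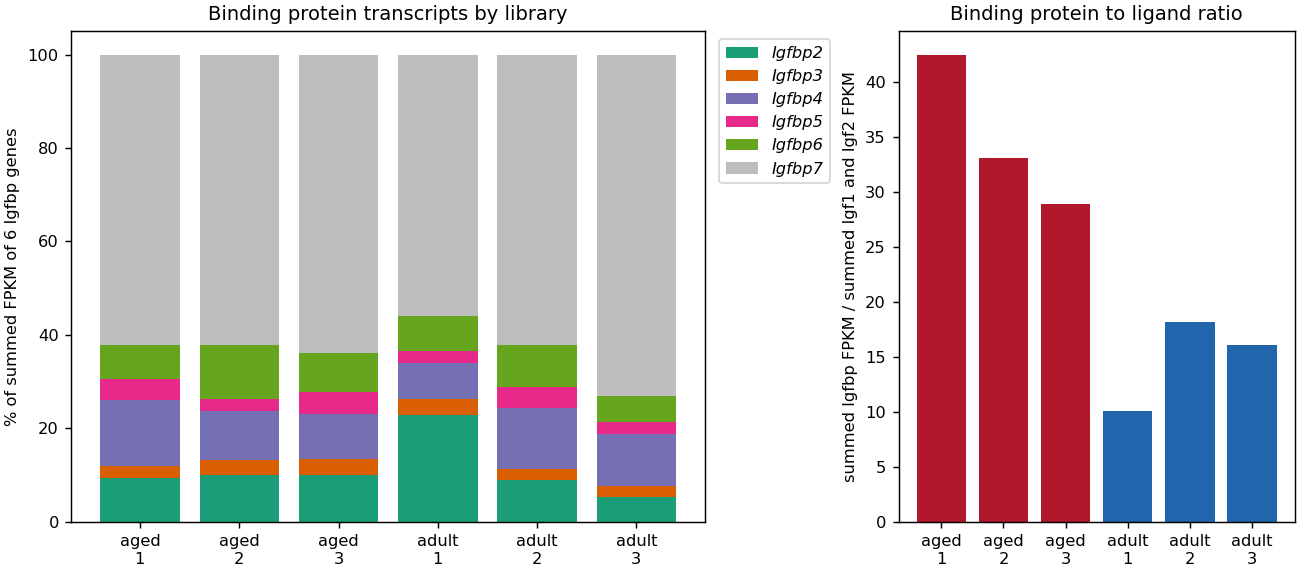
Left, share of each binding protein in the summed FPKM of the 6 Igfbp genes per library; right, that sum divided by the summed FPKM of Igf1 and Igf2, aged bars in red left of adult bars in blue. Igfbp7 makes up 55.9% to 73.2% of the pool, and the ratio is 28.9 to 42.5 in aged rats and 10.1 to 18.2 in adult rats.

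Genes that act on IGF availability or pass on its signal were taken as lists beside the members. Of 12 genes for carriers, proteases that cut binding proteins and inhibitors of these proteases, 7 were tested, 4 higher and 3 lower in aged rats, with a median log2 fold change of 0.15. The smallest p-values belonged to Adam12, a protease that cleaves IGFBP3 and IGFBP5 (5.27 ± 0.516 CPM in aged and 7.29 ± 0.779 CPM in adult rats, SD, n = 3 each), and to the serine protease gene Htra3 (12.6 ± 0.983 CPM in aged and 15.8 ± 1.90 CPM in adult rats). Of 18 genes of proximal receptor signalling 16 were tested, 10 higher and 6 lower, with a median of 0.07. Among these the docking protein gene Gab1 averaged 47.0 ± 3.38 CPM in aged and 62.1 ± 10.4 CPM in adult rats, and Grb10, an adaptor that dampens receptor signalling, averaged 48.2 ± 8.72 CPM in aged and 39.6 ± 6.05 CPM in adult rats.

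Of 8 genes of the growth hormone axis 7 were tested, 1 higher and 6 lower, with a median of -0.14. The growth hormone receptor gene Ghr averaged 17.9 ± 0.861 CPM in aged and 21.7 ± 3.97 CPM in adult rats, and the kinase gene Jak2 averaged 33.3 ± 3.20 CPM in aged and 27.4 ± 1.22 CPM in adult rats (SD, n = 3 each). Over these lists of availability, signalling and growth hormone genes, 0 genes were called by edgeR, DESeq2, limma-voom or limma on log2(FPKM + 1). Gab1 was the only one with an unadjusted p under 0.05 by edgeR, where 3.45% of all genes tested had one. Leaving out adult replicate 1, 5 availability genes were higher and 2 lower (median 0.19). The signalling genes were then 6 higher and 10 lower (median -0.05), and the growth hormone genes 1 higher and 6 lower (median -0.24). In that fit 0 genes of each list had an unadjusted p under 0.05.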

How the data were processed

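RNA from the ventral hippocampus of 3 aged and 3 adult rats was sequenced, 1 library per rat. The authors deposited raw read counts per gene symbol and FPKM; FPKM equalled the count per fixed length and per library total (within 0.1% in all 18553 genes that could be checked), so both hold one measurement. Reads were mapped to build Rnor_6.0 according to the submitters' processing notes; aligner, counter, annotation and strand use: not given in the sources used here. Symbols that read as dates (27) were kept.

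Genes were filtered with filterByExpr, scaled by TMM and tested with edgeR 4.0.16 (glmQLFit, glmQLFTest, two-sided, age as the only term, R 4.3.3), with Benjamini-Hochberg adjustment over 14588 genes. Standard errors and 95% intervals were derived from its F statistic, and rest on the spread between 6 animals. CPM are TMM-scaled; log2 CPM used a prior count of 2. The other settings were upper-quartile, RLE and plain library size scaling, no filter, at least 1 CPM in 3 libraries, robust quasi-likelihood, DESeq2 1.42.0, limma-voom (limma 3.58.1), limma on log2(FPKM + 1) and log2(FPKM + 0.1), the replicate number as a block, a term for the libraries low in liver transcripts (replicate 1 of each age), and each library left out. DESeq2 without adult replicate 1, and the marker lists, companion lists and FPKM means without that library, were added after seeing the data. The scripts were tested on simulated counts.

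Members and gene lists were chosen with earlier results of these data known. All members are named; each companion list gives its 2 genes with the smallest p, and marker genes were named for their level or for the library they mark. The 5 genes most like a ligand were taken among genes of at least 1 CPM with a symbol other than a locus identifier. Symbols were matched to RefSeq on GRCr8 (17139 of 22601 genes, all 10 members), used only for names, neighbours and promoter sequences.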

Additional observations from a re-analysis of the deposited data

How the results depend on the processing

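Over 18 planned settings the log2 fold change of Igf2 ran from -2.18 to -1.21 and that of Igf1 from -0.67 to -0.31, both below 0 in each (adjusted p 0.00273 to 1.0 and 0.923 to 1.0), while Igf1r (0.20 to 0.33) and Igfbp7 (-0.44 to -0.15) also kept their sign. edgeR called 0 members in every setting; DESeq2 called 1 (Igf2, -1.89) and 31 genes in all, and without adult replicate 1 it called 1 member (Igf2, -1.22) and 38 genes. Over all genes limma on log2(FPKM + 1) called 2, and leaving out each library gave 0 to 1. The members' median log2 fold change ran from -0.34 to 0.01 over the libraries left out.

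Several members changed sign, most of them near 0, and Igfbp2 (-0.80 with all libraries) among them. With limma-voom Igf2r was -0.0053, Igfbp5 0.0227 and Igfbp6 -0.0285. Igfbp5 was 0.0221 with log2(FPKM + 1), 0.0296 with log2(FPKM + 0.1) and 0.0152 with the replicate block, and Igfbp3 was 0.0049 with log2(FPKM + 0.1) and 0.00607 with the term for liver transcripts. With DESeq2 without adult replicate 1, Igf2r was -0.0238, Igfbp2 0.37, Igfbp3 0.40 and Igfbp5 0.0371. Leaving out each library, the ranges were -0.13 to 0.15 for Igf2r, -1.22 to 0.38 for Igfbp2, -0.29 to 0.41 for Igfbp3, -0.31 to 0.09 for Igfbp4, -0.22 to 0.18 for Igfbp5 and -0.40 to 0.28 for Igfbp6. Apart from the libraries left out, the cause was not tested.

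With the replicate block, Igf2 was -1.74, Igf1 -0.53, Igf2r -0.0102 and Igfbp2 -0.36, with 0 members and 0 genes called. The numbers pair the rats by name only: deviations of same-numbered rats from their group means correlated at -0.0152, -0.057 and 0.0865.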

Other observations

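Of 9 imprinted genes of growth control other than Igf2, 7 were in the table and tested, 6 higher and 1 lower in aged rats, the median log2 fold change being 0.24, with 0 called by edgeR, DESeq2, limma-voom or limma on log2(FPKM + 1), and 0 at an unadjusted p under 0.05. All 7 were higher without adult replicate 1 (median 0.45), 1 of them at an unadjusted p under 0.05. Mest, expressed from the paternal copy, averaged 9.08 ± 1.15 CPM in aged and 7.22 ± 1.37 CPM in adult rats (SD, n = 3 each).

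Of the 3 genes for IGF2 mRNA-binding proteins, which hold Igf2 transcripts in the cytoplasm, Igf2bp3 alone passed the filter on low counts, which it did through the adult rats. It stood at 0.0665, 0.241 and 0.563 CPM in aged replicates 1 to 3, against 0.682, 1.20 and 0.733 CPM in adult replicates 1 to 3. These values rest on only 1, 3 and 9 counts in the aged and 10, 19 and 11 counts in the adult rats. The ages did not overlap, as in 7.56% of all genes tested.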
